A study of Ovis aries with 15 samples.

Results

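The genes followed here are 10 genes by which myoepithelial cells of the mammary gland contract and are recognised: OXTR, the oxytocin receptor, the contractile genes ACTA2, ACTG2, MYH11, MYLK, CNN1 and TAGLN, and the basal epithelial genes KRT5, KRT14 and TP63. They were chosen by symbol, as rows of the deposited gene table that carry one of these names, and 9 of the 10 were matched among 24691 features. OXTR was matched by neither symbol, gene ID nor synonym and is not analysed here. All 9 matched genes passed the filter on low reads, which kept 13345 features.

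Myoepithelial cells form the basal layer of mammary alveoli and ducts and wrap the milk-secreting luminal cells. Oxytocin released at suckling binds its receptor on these cells, the receptor signals through Gq proteins, phospholipase C and calcium, and calcium with calmodulin activates myosin light chain kinase, so that smooth muscle type actin and myosin shorten and milk is ejected. Basal keratins and the transcription factor p63 mark the epithelial origin of these cells, which sets them apart from vascular smooth muscle.

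The tissue was mammary parenchyma taken by needle biopsy from 2-year-old Romney ewes with their first lambs, at day 135 of gestation (late pregnancy) and day 15 after birth (lactation). RNA was pooled before sequencing, giving 9 late pregnancy libraries and 6 lactation libraries. The ewes' own dams had been fed ad libitum (HM), at maintenance (MM) or below maintenance (LM) in early gestation and at maintenance afterwards, and each of these dam groups holds 3 late pregnancy pools and 2 lactation pools. The ewes themselves were all managed alike. By the labels a late pregnancy pool holds RNA of 3 ewes and a lactation pool of 2, while the methods give the larger number for both. A pool is an average over ewes, so the spread between libraries understates the spread between animals, and ewes sampled in both states are not matched between pools here.

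The late pregnancy libraries held 6471237 to 16898986 reads used here, and those of lactation 9014506 to 24001031. The summed level of 7 milk protein genes was 75200 to 150000 CPM in late pregnancy and 1410000 to 1750000 CPM in lactation, without overlap. CPM is reads per 1000000 of a library size scaled by TMM (trimmed mean of M values), so that abundant milk transcripts do not set the scale, and for that reason the milk proteins alone can exceed 1000000 in lactation. Log2 changes are lactation over late pregnancy with their standard error (SE), and a gene is called at a Benjamini-Hochberg adjusted p under 0.05 in the quasi-likelihood test of edgeR over all tested features. In this comparison 68.4% of the features were called, 35.2% lower and 33.1% higher, and the median change of all features was -0.03. Without TMM, on library size only, that median was -1.93 and 95.2% of features were called lower, so changes are read against the other genes of the same library.

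Of the 9 genes, 2 were lower in lactation (KRT5 and TP63), 5 were higher (ACTG2, MYH11, CNN1, TAGLN and the row named KRT14) and 2 were not called (ACTA2 and MYLK), against 35.2% of all features lower and 33.1% higher, while on library size only all 9 were lower. Their median change was 0.45. Without overlap between the states were KRT5 on the lower side, where 20.0% of all features stand, and CNN1 on the higher side, where 20.2% stand. On the TMM scale the contractile genes were thus level or higher, while of the basal genes KRT5 and TP63 were lower and the KRT14 row higher. With limma on the authors' quantile-normalized RPKM, ACTA2 (-0.28) and MYLK (-0.24) were called lower, and TP63 (-0.12) was not called. In pooled tissue, fewer cells of a type and less RNA per cell cannot be told apart.

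**Figure D1:**
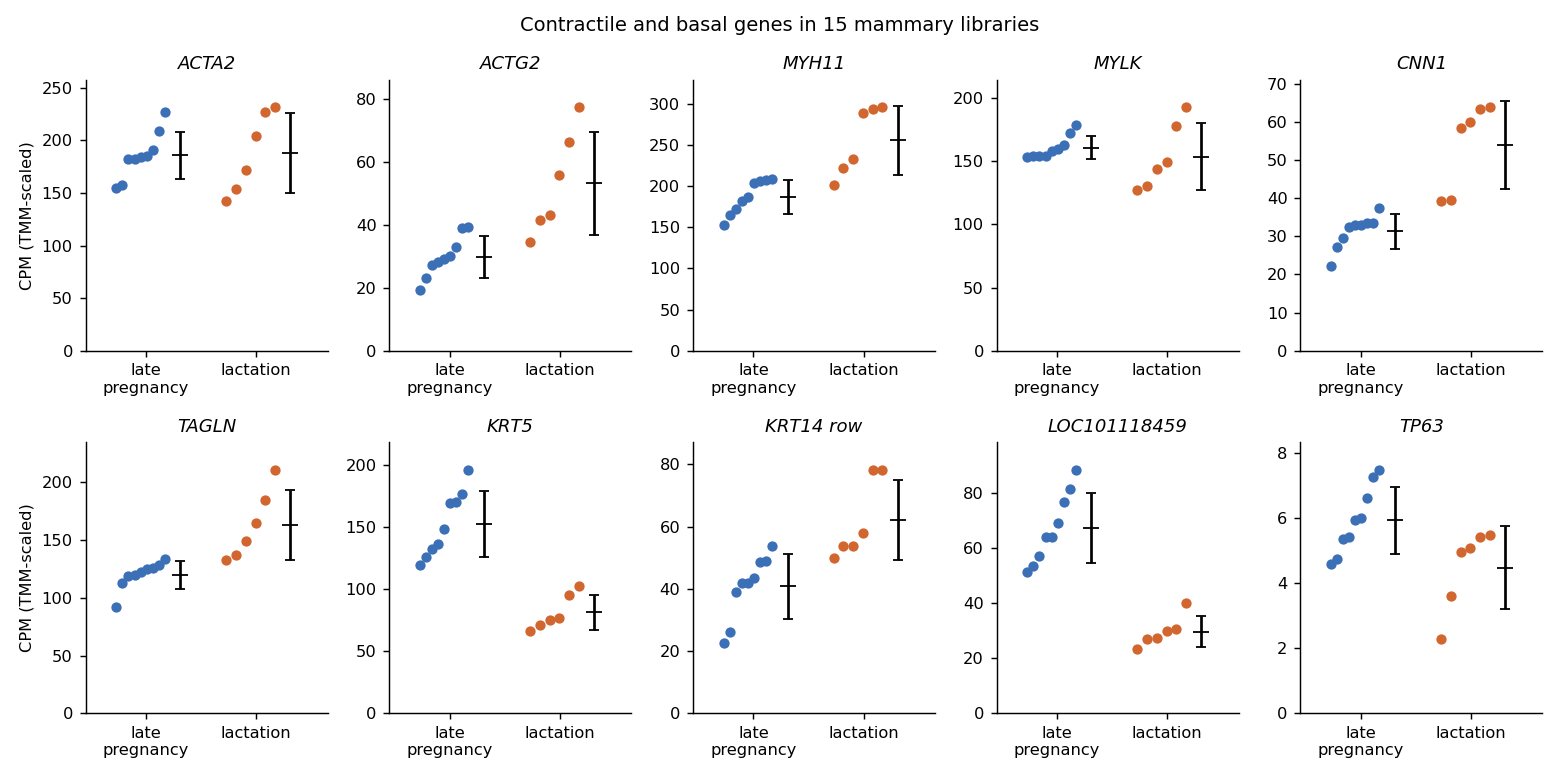
CPM on the TMM scale (y axis, from 0) of 9 genes and of the row LOC101118459 in each of 9 late pregnancy (blue) and 6 lactation (orange) libraries, sorted by value within a state, with mean and SD beside them in black. All 6 lactation libraries lie above the late pregnancy range for CNN1 and below it for KRT5 and LOC101118459, while ACTA2 and MYLK spread over the same range, and on library size only every gene shown was lower in lactation.

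ACTA2 encodes the alpha smooth muscle actin of the thin filament and lies on chromosome 22 at 10372431-10392660 (deposited coordinates, assembly Oar_v3.1 by the processing notes). Its level was 155 to 227 CPM in late pregnancy (median 184, n = 9), and the lactation libraries held 142 to 232 CPM (median 188, n = 6). The states overlapped widely, with 2 lactation libraries above and 2 below the late pregnancy range, and the log2 change was 0.02 (SE 0.10, adjusted p = 0.85). On the authors' quantile-normalized RPKM, limma gave -0.28 (adjusted p = 0.028), so the direction of ACTA2 turned with the scaling.

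ACTG2, the gamma smooth muscle actin (chromosome 3, 95651712-95675759), was the less abundant of the smooth muscle actins and rose on the TMM scale. It held 19.3 to 39.4 CPM in late pregnancy (median 29.1), and the lactation libraries held 34.5 to 77.5 CPM (median 49.5), with a log2 change of 0.85 (SE 0.16, adjusted p = 1.4e-04). In lactation 5 of 6 libraries lay above every late pregnancy library, and HM lactation pool 1 lay within their range.

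MYH11, the smooth muscle myosin heavy chain of the thick filament (chromosome 24, 14094744-14222165), had 153 to 208 CPM in late pregnancy (median 186), and the lactation libraries held 201 to 296 CPM (median 261). The change was 0.45 (SE 0.09, adjusted p = 2.0e-04), with 5 of 6 lactation libraries above the late pregnancy range. On quantile-normalized RPKM with limma it was 0.20 and no longer called (adjusted p = 0.070).

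MYLK is the myosin light chain kinase that starts contraction once calcium and calmodulin bind it (chromosome 1, 186262773-186452257). It ranged from 153 to 179 CPM in late pregnancy (median 158), and the lactation libraries ranged from 127 to 193 CPM (median 147), a change of -0.06 (SE 0.08, adjusted p = 0.49). The late pregnancy pools were close to each other, with a coefficient of variation of 5.84%, and 4 of 6 lactation pools lay below them and 1 above. MYLK was called lower with upper quartile scaling (-0.21, adjusted p = 0.023) and with limma on quantile-normalized RPKM (-0.24, adjusted p = 0.015).

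CNN1, calponin, is an actin-binding protein that restrains the myosin ATPase of smooth muscle (chromosome 5, 13552809-13560606). CNN1 measured 22.1 to 37.5 CPM in late pregnancy (median 32.9), and the lactation libraries held 39.4 to 64.0 CPM (median 59.1). Every lactation library lay above every late pregnancy library, and the change was 0.80 (SE 0.12, adjusted p = 6.3e-06), a 1.74-fold rise. Of the 6 lactation libraries, HM pool 1 (39.5 CPM) and MM pool 2 (39.4 CPM) lay below the other 4, which held 58.4 to 64.0 CPM.

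TAGLN, transgelin, another actin-binding protein of smooth muscle (chromosome 15, 27378654-27384207), was at 91.8 to 134 CPM in late pregnancy (median 122), and the lactation libraries held 133 to 211 CPM (median 157). The change was 0.45 (SE 0.09, adjusted p = 2.8e-04), and 5 of 6 lactation libraries lay above the late pregnancy range. With limma on quantile-normalized RPKM it was 0.13 and not called (adjusted p = 0.22).

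KRT5 is the type II keratin of basal epithelium (chromosome 3, 133704001-133710199) and was the gene that fell most among the 9. Its level was 119 to 196 CPM in late pregnancy (median 148), and the lactation libraries held 66.4 to 102 CPM (median 75.8), without overlap, and the change was -0.90 (SE 0.12, adjusted p = 1.0e-06), a level 1.87-fold lower. This direction held under every scaling tried, from -0.90 under TMM to -2.81 on library size only.

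KRT14 encodes the type I keratin that pairs with KRT5 in basal cells, and its row needs care. The row with that name lies on chromosome 11 at 41324041-41329581. The RefSeq gene table (assembly ARS-UI_Ramb_v3.0) gives KRT14 as an older symbol of KRT17, a related basal keratin, and places KRT17 between KRT14 and EIF1, which is where the row stands among its neighbours. The same table now gives the name KRT14 to the gene ID of the row LOC101118459 (chromosome 11, 41280618-41284829). Which of both genes the row named KRT14 counts was not settled here, so both rows are given, the second chosen after its values were seen.

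The rows went in opposite directions under TMM, while both were lower on library size only. The KRT14 row held 22.7 to 53.8 CPM in late pregnancy (median 42.0), and the lactation libraries held 49.9 to 78.3 CPM (median 55.8), a change of 0.61 (SE 0.16, adjusted p = 2.2e-03), with 4 of 6 lactation libraries above the late pregnancy range. With limma on quantile-normalized RPKM the KRT14 row was 0.38 and not called (adjusted p = 0.058). LOC101118459 held 51.4 to 88.4 CPM in late pregnancy (median 64.0), and the lactation libraries held 23.5 to 40.0 CPM (median 28.5), without overlap, a change of -1.18 (SE 0.13, adjusted p = 1.2e-07). With LOC101118459 in place of the KRT14 row, 3 genes were lower and 4 higher. HM and MM late pregnancy pool 2 had the lowest KRT14 row (26.2 and 22.7 CPM) and held 88.4 and 69.2 CPM of LOC101118459, the first of these its highest value.

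TP63 encodes the transcription factor that keeps the basal epithelial lineage (chromosome 1, 195681321-195943933) and was the least abundant of the genes. It ranged from 4.59 to 7.49 CPM in late pregnancy (median 5.94), and the lactation libraries ranged from 2.28 to 5.49 CPM (median 5.01), on 13 to 57 reads per lactation library. The change of -0.38 (SE 0.16, adjusted p = 0.045) was barely called, and with limma on quantile-normalized RPKM it was -0.12 and not called (adjusted p = 0.28). Its low end in lactation was HM pool 2 at 2.28 CPM, and the change was -0.26 (adjusted p = 0.12) without that pool. In all, 8 of the 15 fits that leave out 1 library did not call TP63, the others being those without LM lactation pool 2 (-0.33), MM lactation pool 1 (-0.42), HM late pregnancy pools 1 (-0.38) and 2 (-0.34), LM late pregnancy pool 2 (-0.35) and MM late pregnancy pools 2 (-0.34) and 3 (-0.38).

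Each library was run on a pair of lanes, yet the column names carry 1 lane number, which divides the libraries into 4 late pregnancy and 3 lactation libraries of lane 7 and 5 and 3 of lane 8. Every LM library carries lane number 8, and lane 7 holds only HM and MM libraries. For the LM libraries a difference between the lanes thus cannot be told apart from one between dam groups. The late pregnancy pools of HM and MM carry both lane numbers, and the lanes were not compared within a dam group. Within lane 7 the changes were 0.85 for ACTG2, 0.44 for MYH11, 0.68 for CNN1, 0.36 for TAGLN, -0.71 for KRT5, 0.79 for the KRT14 row and -1.27 for LOC101118459. Within lane 8 they were 0.83, 0.45, 0.89, 0.53, -1.04, 0.47 and -1.09 in the same order, and each of the 7 was called in both lanes. Each lane is a part of the libraries in which the 7 were called, so this is no replication. Over all libraries 68.4% of features were called, and the share within a lane is not given here. TP63 was called in neither (-0.60 and -0.19, adjusted p = 0.062 and 0.42), and MYLK only in lane 8 (-0.24, adjusted p = 0.015, against 0.09, adjusted p = 0.47, in lane 7).

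Levels of different genes were compared as CPM per kilobase of exon. In late pregnancy ACTA2 led with 132 ± 15.9 CPM per kilobase (SD, n = 9), followed by TAGLN (102 ± 10.4) and KRT5 (69.4 ± 12.0). Each of these exceeded the next in 8 or 9 of 9 libraries. Below them stood LOC101118459 (44.1 ± 8.38), MYH11 (28.9 ± 3.17), the KRT14 row (26.8 ± 6.79), ACTG2 (22.5 ± 5.01), CNN1 (21.5 ± 3.05) and MYLK (21.3 ± 1.24). From MYH11 to MYLK neighbours in the order overlapped in range, and TP63 came last at 1.69 ± 0.295.

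In lactation TAGLN (139 ± 25.4, n = 6) and ACTA2 (134 ± 27.0) shared the top, with TAGLN above ACTA2 in 4 of 6 libraries. The KRT14 row (40.8 ± 8.44), ACTG2 (40.1 ± 12.4), MYH11 (39.6 ± 6.48), CNN1 (37.1 ± 7.90) and KRT5 (36.9 ± 6.43) followed with overlapping ranges. MYLK (20.3 ± 3.50) and LOC101118459 (19.5 ± 3.70) stood below them and overlapped, and TP63 was at 1.28 ± 0.362. KRT5 thus went from the third place to the seventh.

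A ratio of 2 genes within a library does not depend on how libraries are scaled. It was tested by an exact two-sided permutation test over the 5005 ways to choose 6 of 15 libraries, in which 0.0002 is the smallest possible p. Of 9 ratios, 7 differed between the states after Benjamini-Hochberg adjustment over the 9, and these 7 did not overlap between the states. Among single features 20.0% did not overlap on the lower side and 20.2% on the higher side. The share among all gene pairs was not computed. The 3 ratios CNN1 over KRT5, LOC101118459 over KRT5 and LOC101118459 over the KRT14 row were added after the values were seen. Of these, CNN1 over KRT5 and LOC101118459 over the KRT14 row are among the 7, and their separation was given by the choice.

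**Figure D2:**
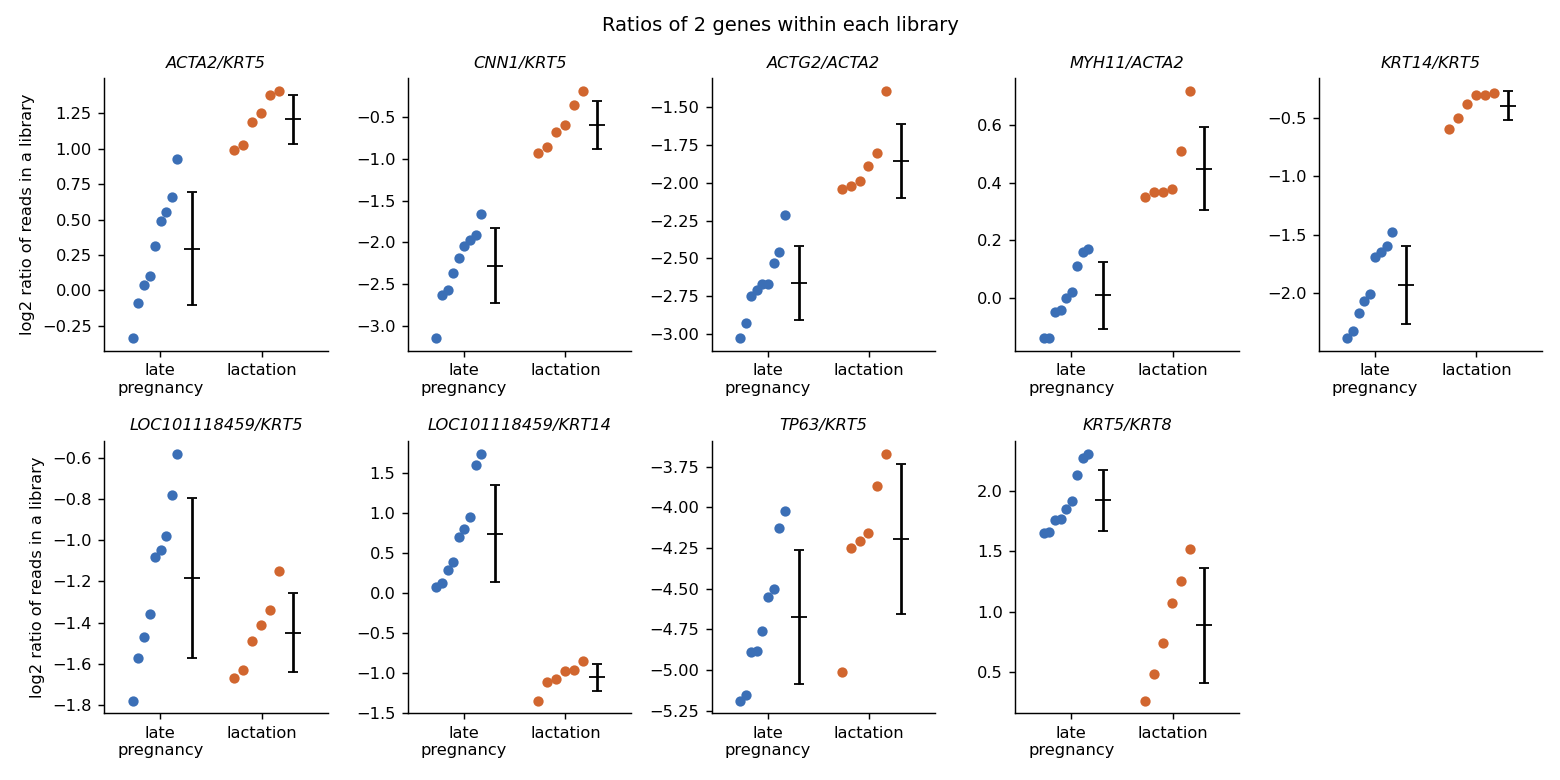
Log2 ratio of the reads of 2 genes (y axis) in each late pregnancy (blue, n = 9) and lactation (orange, n = 6) library, sorted within a state, with mean and SD in black and an axis of its own for each pair. The states are apart for 7 of the 9 pairs and overlap for TP63/KRT5 and LOC101118459/KRT5.

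ACTA2 reads per KRT5 read were 0.788 to 1.91 in late pregnancy (median 1.24), against 1.98 to 2.66 over the lactation libraries (median 2.33). The log2 ratio differed by 0.91 (exact permutation p = 0.0006, adjusted p = 0.00077). For CNN1 over KRT5 the range moved from 0.113 to 0.316 up to 0.525 to 0.880, a difference of 1.68 (exact permutation p = 0.0002, adjusted p = 0.0003). The CNN1 pair was added after both genes were seen not to overlap, in opposite directions. Its separation was thus given by the choice, and its p is no support. ACTA2 stood higher against KRT5 in every lactation library than in any of late pregnancy, whatever the scaling.

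Among the contractile genes themselves the balance also differed. ACTG2 reads per ACTA2 read rose from 0.122 to 0.216 (median 0.157) to 0.244 to 0.381 (median 0.260), a log2 difference of 0.81, and MYH11 reads per ACTA2 read from 0.907 to 1.13 (median 1.00) to 1.28 to 1.65 (median 1.30), a difference of 0.44. Both gave an adjusted p of 0.0003 in the exact permutation test.

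KRT5 against KRT8, its luminal counterpart, went from 3.13 to 4.96 (median 3.61) down to 1.19 to 2.86 (median 1.88), a log2 difference of -1.04 (exact permutation, adjusted p = 0.0003). The KRT14 row over KRT5 gave 0.191 to 0.359 in late pregnancy and 0.664 to 0.821 in lactation, a difference of 1.54 (exact permutation, adjusted p = 0.0003). LOC101118459 over KRT5 gave 0.292 to 0.670 and 0.314 to 0.451, a difference of -0.27 that the exact permutation test did not separate from 0 (adjusted p = 0.15). LOC101118459 over the KRT14 row fell from 1.06 to 3.37 in late pregnancy to 0.392 to 0.556 in lactation (-1.80, exact permutation, adjusted p = 0.0003), so the order of both keratin rows changed over in all libraries. This pair was also chosen after both rows were seen to move apart, so its p is no support. TP63 over KRT5 differed by 0.48 (exact permutation p = 0.057, adjusted p = 0.064), with overlapping libraries, and passed the threshold without HM lactation pool 2 (0.64), HM late pregnancy pool 2 (0.55) or MM late pregnancy pool 2 (0.56).

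The 7 ratios that differed did so in the same direction within both lanes. As their states did not overlap over all libraries, this direction was given beforehand, and the lanes only show the size. ACTA2 over KRT5 differed by 0.62 in lane 7 and 1.15 in lane 8, CNN1 over KRT5 by 1.37 and 1.93, and ACTG2 over ACTA2 by 0.90 and 0.73. For TP63 over KRT5 the lanes gave 0.04 and 0.85.

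Reads on introns, taken as reads on the whole gene less reads on exons, were a second readout in the same libraries. Of the 8 genes of the list with enough of them, 2 were higher in lactation and 4 lower, where 29.0% of 10344 features tested were called in each direction. With the library sizes and factors of the exon reads in place of those of the intron reads, 2 were higher and 2 lower.

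**Figure D3:**
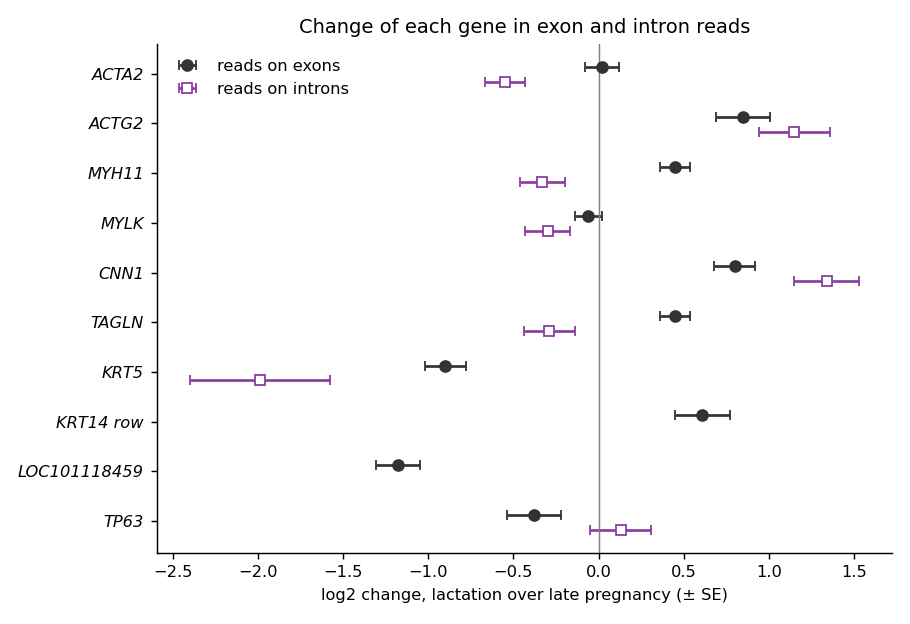
Log2 change between the states with its SE (x axis) for reads on exons (filled circles) and on introns (open squares), by gene, each with TMM of its own reads. ACTG2 and CNN1 lie above 0 and KRT5 below 0 in both, MYH11 above 0 on exons and below 0 on introns, and no intron value is drawn for both KRT14 rows, which had too few such reads. On library size only all exon changes shown were below 0.

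CNN1 and ACTG2 rose in both readouts. Intron reads of CNN1 were few, 7 to 26 per late pregnancy library and 7 to 21 per lactation library, and their change was 1.34 (SE 0.19, adjusted p = 2.3e-06). For ACTG2, with 5 to 20 and 7 to 19 intron reads, it was 1.15 (SE 0.21, adjusted p = 5.2e-05). KRT5 was lower in both, and its intron change of -1.99 (SE 0.41, adjusted p = 2.3e-04) rests on 0 to 3 reads per lactation library. With 7 to 35 intron reads per late pregnancy library, KRT5 passed the filter through that state, so its lower intron level adds no support.

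ACTA2 was lower in intron reads and not in exon reads, and MYH11 was so only with TMM of the intron reads. ACTA2 introns went from 98.9 ± 5.35 to 66.9 ± 18.6 CPM of intron reads (-0.55, SE 0.12, adjusted p = 4.7e-04), and MYH11 introns from 88.0 ± 10.3 to 68.5 ± 17.6 (-0.33, SE 0.13, adjusted p = 0.028). MYLK introns were also lower (-0.30, SE 0.13, adjusted p = 0.043). With the scaling of the exon reads ACTA2 stayed lower (-0.47, adjusted p = 2.3e-03), and MYH11 (-0.25, adjusted p = 0.11) and MYLK (-0.22, adjusted p = 0.16) were not called. TAGLN (-0.29, adjusted p = 0.10) and TP63 (0.13, adjusted p = 0.54) were not called on introns. Intron reads made up 6.15% of the reads on ACTA2 in late pregnancy and 4.33% in lactation. The difference between the exon and the intron change of a gene was not tested.

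Of the 15 pairs among the 6 contractile genes, all had a positive Pearson's r in both states, from 0.05 to 0.89 in late pregnancy with 1 pair called and from 0.45 to 0.95 in lactation with 0 called (exact permutation test, adjusted over 45 pairs). In late pregnancy ACTA2 and CNN1 had Pearson's r = 0.89 (exact permutation p = 0.00060, adjusted p = 0.013 over 45 pairs) and Spearman's rho = 0.97 (exact permutation p = 0.00017, adjusted p = 0.0077), n = 9. Without the 2 pools farthest from the median of ACTA2, r was 0.83. KRT5 went the other way, with r = -0.84 against ACTA2 (exact permutation p = 0.0033, adjusted p = 0.049) and rho = -0.90 (exact permutation p = 0.0020, adjusted p = 0.030). Without the 2 farthest pools that r was -0.63. KRT5 against CNN1 gave r = -0.85 (exact permutation p = 0.00041, adjusted p = 0.013) and rho = -0.90 (exact permutation p = 0.0020, adjusted p = 0.030), with r = -0.82 without the 2 farthest. These 3 pairs were the ones called by r among 45, and 24 of the 45 had a positive r.

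**Figure D4:**
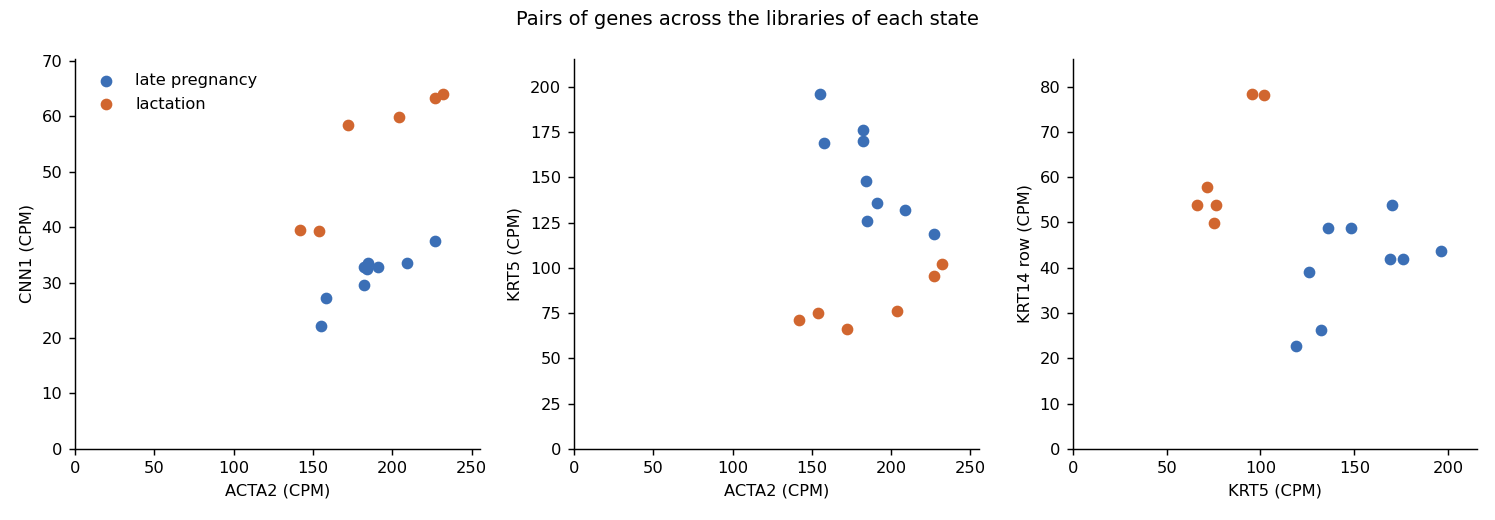
CPM of CNN1 against ACTA2, KRT5 against ACTA2 and the KRT14 row against KRT5 (axes from 0), 1 point for each late pregnancy (blue, n = 9) or lactation (orange, n = 6) library. CNN1 rises with ACTA2 in both states, and KRT5 falls with ACTA2 over the late pregnancy pools and not over the lactation pools.

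In lactation 40 of 45 pairs had a positive r, with a median of 0.71 against 0.05 in late pregnancy. No pair was called there with 6 libraries. ACTA2 against CNN1 was r = 0.91 (exact permutation p = 0.0028, adjusted p = 0.13) and rho = 0.94 (exact permutation p = 0.017, adjusted p = 0.11), with r = 0.84 without the 2 farthest libraries. ACTA2 against KRT5 was r = 0.81 (exact permutation p = 0.062, adjusted p = 0.21) and rho = 0.83 (exact permutation p = 0.058, adjusted p = 0.19), with r = 0.74 without the 2 farthest. Whether the relation of ACTA2 with KRT5 differs between the states was not tested. A lane holds 3 to 5 libraries of a state, too few to repeat these correlations within it.

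Among 12264 genes of at least 1 CPM, those most like ACTA2 by the correlation of deviations from the state means over 15 libraries were CNN1 (0.90), TSSK3 (0.86), KDM2B (0.86), TPM2 (0.86) and TAGLN (0.84). MYH11 came at rank 6 (0.83), ACTG2 at rank 14 (0.79), MYLK at rank 433 (0.53) and KRT5 at rank 6552 (0.01). The genes most like KRT5 were GRASP (0.78), MOB3B (0.78), LOC101117107 (0.77), RBPMS (0.77) and IDH3A (0.76), and the KRT14 row stood at rank 28 (0.68) against rank 3292 (0.18) for LOC101118459. These values describe the libraries, which share their depth and scaling across genes.

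Of 29 genes tested that signal with the oxytocin receptor or are related to the hormone, 10 were lower, 11 higher and 8 not called, shares near the 35.2% and 33.1% of all features, and the median change was -0.01 against -0.03 for all features. The largest change was in RGS4, a regulator that shortens Gq signalling, which went from 0.101 to 7.23 CPM in late pregnancy (median 0.443) to 196 to 482 CPM in lactation (median 267), a log2 change of 7.74 (SE 0.50, adjusted p = 4.5e-11). The highest late pregnancy value was that of HM pool 1, and without it the change was 8.97. RGS2, another regulator of Gq proteins, went the other way, from 158 to 270 CPM (median 218) to 32.7 to 64.8 CPM (median 52.8), a change of -2.13 (SE 0.14, adjusted p = 7.0e-11).

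Along the calcium branch, ITPR1, an inositol trisphosphate receptor that releases stored calcium, fell from 35.5 to 83.5 CPM to 8.78 to 15.4 CPM (-2.39, SE 0.22, adjusted p = 6.0e-09). Its relative ITPR2 rose from 44.5 ± 5.14 to 90.3 ± 20.1 CPM (1.02, SE 0.11, adjusted p = 6.1e-08). ORAI1, the channel that refills calcium stores, rose from 8.44 ± 0.935 to 20.7 ± 2.93 CPM (1.27, adjusted p = 2.2e-10), and PLCB2, a phospholipase C, fell from 8.11 ± 0.506 to 2.82 ± 0.888 CPM (-1.47, adjusted p = 7.4e-09). LNPEP, the aminopeptidase that cleaves oxytocin, rose from 17.3 ± 3.74 to 31.4 ± 4.83 CPM (0.86, adjusted p = 7.1e-06). The Gq subunits GNAQ (0.24, adjusted p = 0.014) and GNA11 (0.53, adjusted p = 1.7e-06) were higher. Which cells of the tissue carried these changes was not tested. Of the pathway and basal lists together, 105 genes were lower on library size only and 1, RGS4, was higher, where 95.2% of all features were lower. ITPR2 was then at -0.89, LNPEP at -1.05, GNA11 at -1.38 and GNAQ at -1.67.

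The hormone and its relatives were near the limit of detection. OXT, oxytocin itself, averaged 0.121 CPM in late pregnancy and was at 0 in lactation, and the vasopressin receptor AVPR1A averaged 0.206 and 0.268 CPM, and both were too low to be tested. AVPR2 was tested and not called (-0.48, adjusted p = 0.19).

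**Figure D5:**
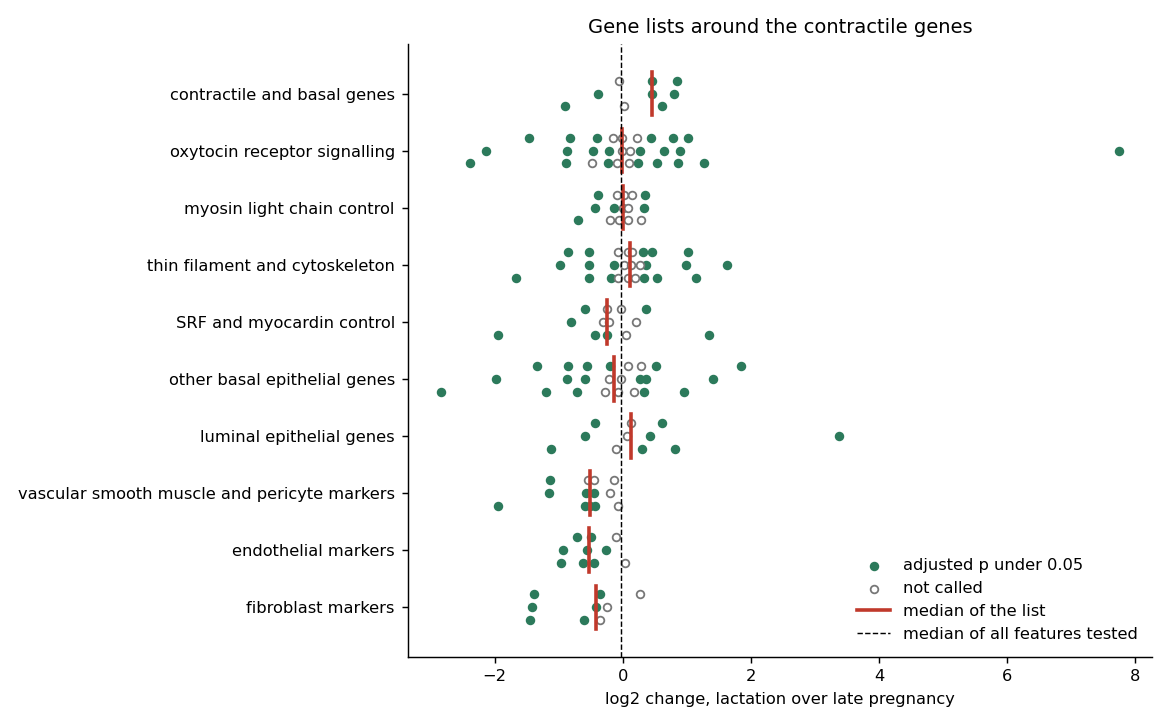
Log2 change between the states on the TMM scale (x axis) of every tested gene of 10 lists, filled where the adjusted p is under 0.05 and open where not, with the median of each list in red and the median of all features as a dashed line. The pathway lists straddle the dashed line, the vascular, endothelial and fibroblast lists lie mostly below it, and RGS4 stands at 7.74.

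Of 15 genes that control the myosin light chain, 4 were lower, 2 higher and 9 not called, against 35.2% lower and 33.1% higher among all features. The changes called ranged from -0.70 to 0.35, with a median of 0.01 over the list. MYL9, the regulatory light chain that MYLK phosphorylates (row LOC101121534), rose from 37.5 ± 4.55 to 47.8 ± 6.11 CPM (0.35, SE 0.09, adjusted p = 1.4e-03), and fell by 1.55 on library size only. PPP1R14B, an inhibitor of protein phosphatase 1, fell from 14.1 ± 1.10 to 8.75 ± 0.760 CPM (-0.70, adjusted p = 1.5e-07). PPP1CC, a catalytic subunit of that phosphatase (-0.38, adjusted p = 2.3e-05), and DAPK3, a kinase that acts on it and on the light chain (-0.44, adjusted p = 6.3e-04), fell as well. PPP1R12C, a targeting subunit, rose by 0.34 (adjusted p = 1.9e-03). The non-muscle myosins MYH9 (0.01, adjusted p = 0.92), MYH10 (-0.20, adjusted p = 0.096) and MYH14 (-0.05, adjusted p = 0.54) were not called, while MYH11 was.

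Of 26 genes of the thin filament and its anchorage, 8 were lower, 9 higher and 9 not called, with a median of 0.11. These shares are near the 35.2% lower and 33.1% higher of all features. Of the 4 relatives of CNN1 and TAGLN tested, 3 fell, CNN3 from 139 ± 12.2 to 43.8 ± 5.32 CPM (-1.67, SE 0.08, adjusted p = 3.2e-13), CNN2 to 7.72 ± 1.13 CPM (-0.85, adjusted p = 1.1e-07) and TAGLN2 from 80.2 ± 6.51 to 55.8 ± 8.67 CPM (-0.53, adjusted p = 9.2e-06), while TAGLN3, at 0.524 and 0.471 CPM, was not called (-0.07, adjusted p = 0.91). CNN3 and CNN1 were thus on opposite sides, and neither overlapped between the states. SMTN, smoothelin of contractile smooth muscle, rose from 11.1 to 16.4 CPM (median 15.0) to 37.1 to 51.3 CPM (median 45.3), a change of 1.63 (SE 0.09, adjusted p = 2.7e-12). TPM1, a tropomyosin, rose by 1.02 (adjusted p = 3.0e-10), and PDLIM3, a Z-disc and actinin partner, by 0.99 (adjusted p = 2.5e-08). On library size only the changes of SMTN, TPM1 and PDLIM3 were -0.27, -0.89 and -0.92. CALD1, caldesmon, fell from 447 ± 25.2 to 227 ± 28.2 CPM (-0.98, adjusted p = 1.5e-10). The cytoplasmic actins ACTB and ACTG1 (row LOC443340) changed by 1.14 (adjusted p = 1.1e-10) and -0.18 (adjusted p = 3.8e-03), and a second row named ACTB was not used. ACTA1 and ACTC1, the striated muscle actins, were too low to be tested, at 0.329 and 0.602 CPM and at 0.347 and 1.35 CPM in late pregnancy and lactation.

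The next list holds serum response factor, which drives smooth muscle genes, its coactivators, and genes of transforming growth factor beta and Notch signalling. Of its 13 genes tested, 5 were lower, 2 higher and 6 not called, with a median of -0.25. Among all features 35.2% were lower and 33.1% higher. SRF itself was not called (0.21, adjusted p = 0.066). MYOCD, its muscle coactivator, was near the limit at 1.10 ± 0.477 CPM in late pregnancy and 0.259 ± 0.190 CPM in lactation, without overlap (-1.95, SE 0.47, adjusted p = 1.0e-03). MKL2, a related coactivator, fell by 0.44 on the log2 scale (adjusted p = 3.9e-03). Of the transforming growth factor beta receptors, TGFBR1 rose from 8.14 ± 1.70 to 20.7 ± 2.38 CPM (1.35, adjusted p = 6.2e-09) and TGFBR2 by 0.36 (adjusted p = 3.9e-05), while the ligand TGFB3 fell by 0.81 on the log2 scale (adjusted p = 5.4e-03). On library size only both receptors were lower (-0.56 and -1.55).

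Among 24 other basal epithelial genes, 10 were lower, 7 higher and 7 not called, with a median of -0.14, against 35.2% lower and 33.1% higher of all features. CDH3, P-cadherin of the basal layer, went from 10.9 to 18.7 CPM (median 13.4) to 0.703 to 3.13 CPM (median 1.84), a level 7.12-fold lower (-2.83, SE 0.20, adjusted p = 1.7e-10). MME, the surface peptidase CD10 of myoepithelium, fell from 66.3 ± 7.35 to 26.0 ± 3.55 CPM (-1.34, adjusted p = 4.1e-11), and DSC3, a desmosomal cadherin, from 6.61 ± 2.01 to 2.76 ± 1.02 CPM (-1.20, adjusted p = 2.2e-04). LAMA3, a laminin chain of the basement membrane, rose from 29.9 ± 3.89 to 80.2 ± 27.1 CPM (1.41, adjusted p = 1.1e-07). KRT16 rose from 0.919 ± 0.458 to 3.13 ± 1.99 CPM (1.84, adjusted p = 1.3e-04), a value that was 1.32 without MM lactation pool 1. On library size only LAMA3 (-0.49) and KRT16 (-0.05) had the opposite sign. KRT15 (row LOC101117682) was not called (-0.22, adjusted p = 0.21), nor was ITGB1 (-0.03, adjusted p = 0.73), while ITGB4, the partner of ITGA6 at hemidesmosomes, fell by 0.72 on the log2 scale (adjusted p = 3.3e-06).

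Several contractile genes are also made by the smooth muscle of vessels, so markers of other cells are given beside them. For these lists too, the shares of all features are 35.2% lower and 33.1% higher. Of 13 vascular smooth muscle and pericyte markers 8 were lower, 0 higher and 5 not called, with a median of -0.51. Their summed level was 48.6 to 82.8 CPM in late pregnancy and 38.9 to 55.2 CPM in lactation. MYOCD, NOTCH3 and DES stand in this list as well as in a list above. Those called were led by MYOCD, NDUFA4L2 (-1.15), HIGD1B (-1.14), NOTCH3 (-0.59) and CSPG4 (-0.57), while RGS5 (-0.14, adjusted p = 0.44) and DES (-0.08, adjusted p = 0.86) were not called, and no marker of the list was at 0 on average. NOTCH3 lost its call without HM lactation pool 2 (-0.47) or LM lactation pool 2 (-0.49). Of 10 endothelial markers 8 were lower and 0 higher (median -0.52), with a summed level of 233 to 318 and 164 to 228 CPM. Of 9 fibroblast markers 6 were lower and 0 higher (median -0.41), with 1400 to 2230 and 695 to 1110 CPM. Their part in the changes of the contractile genes was not tested.

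Luminal markers are the other epithelial arm. Of 11 tested 3 were lower, 5 higher and 3 not called (median 0.13), against 35.2% lower and 33.1% higher of all features. Their summed level was 1860 to 2290 CPM in late pregnancy and 2810 to 3090 CPM in lactation. The largest change was in MUC1 (3.37, adjusted p = 5.7e-17), while ELF5 was also higher (0.81, adjusted p = 2.4e-11) and GATA3 lower (-0.59, adjusted p = 0.0013). KRT8 (0.13, adjusted p = 0.39) was not called, KRT18 (0.43, adjusted p = 0.046) and KRT19 (0.61, adjusted p = 5.6e-05) were higher and KRT7 lower (-1.12, adjusted p = 5.5e-10). On library size only MUC1 was at 1.47, while ELF5 and KRT19 turned to -1.09 and -1.29. Of 6 adipocyte markers 2 were higher, LPL and CIDEA, and 4 not called, ADIPOQ (-0.35), PLIN4 (-0.36), FABP4 (0.05) and CIDEC (-0.61). Which cells carried the rise of LPL and CIDEA was not tested. Of 7 leukocyte markers 5 were lower and 1 higher. Of the 2 skeletal muscle markers tested TNNT3 was lower (-2.41, adjusted p = 2.7e-04) at under 1 CPM and DES was not called.

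By dam nutrition no gene of the list was called. In late pregnancy, with 3 pools for each dam group, 0 of the 9 genes were called by the edgeR F-test, as were 0.0% of 13747 features, with 1 of the 9 and 571 of all features at an unadjusted p under 0.05, and DESeq2 called 0 of the 9. That gene was ACTG2 (unadjusted p = 0.028, adjusted p = 1.00), at 32.2 ± 6.32 CPM in HM, 33.4 ± 5.50 in MM and 23.8 ± 4.95 in LM (SD, n = 3). ACTA2 stood at 194 ± 13.5, 197 ± 25.4 and 166 ± 16.7 CPM and CNN1 at 33.1 ± 0.407, 33.1 ± 4.01 and 27.6 ± 5.71 CPM in the same order. The LM pools were the lowest on average for these contractile genes, and their ranges overlapped those of the other groups. All LM pools carry lane number 8, so for them dam group and lane cannot be told apart. KRT5 ranged from 132 to 170 CPM in HM, 119 to 176 in MM and 126 to 196 in LM.

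The interaction of state and dam group, tested with edgeR, called 0 of the 9 genes and 0.0% of 13345 features, with 0 of the 9 and 876 of all features at an unadjusted p under 0.05. The smallest adjusted p among the 9 was 0.81. In lactation, with 2 pools a group, CNN1 averaged 49.7 CPM in HM, 51.4 in MM and 61.2 in LM, and KRT5 73.9, 85.3 and 84.0, with no test of their own.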

How the data were processed

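RNA of pooled mammary biopsies was sequenced as paired reads of 100 bases on an Illumina HiSeq instrument (TruSeq V2 libraries, which do not mark strand), each library on a pair of lanes whose reads were combined. The authors mapped reads to the sheep genome in CLC Genomics Workbench. The methods name genome version 3.2 and the processing notes Oar_v3.1. The deposited counts, which the authors left unnormalized, give all reads and uniquely placed reads for the exons and for the full span of each gene. The authors divided them by exon length and mapped reads to give the deposited RPKM, and also deposited RPKM after quantile normalization. The deposited fold changes, p-values and corrected p-values of their Baggerly test were not used.

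Exon reads (whole-gene reads for features without a transcript) were filtered with filterByExpr, scaled by TMM and tested with edgeR 4.0.16 (quasi-likelihood F-test, state as the only term, Benjamini-Hochberg adjustment over all tested features) in R 4.3.3. Limma 3.58.1 on log2(normalized RPKM + 1) and DESeq2 1.42.0 were alternatives. Ratios within a library used reads plus 0.5 and an exact permutation test, computed in Python 3.11.15 with scipy 1.17.1. The edgeR step was tested on simulated counts. P-values measure the spread between pools. Counting error alone was not modelled, and reads were counted without molecular identifiers. The 10 genes and all lists were chosen with earlier results of these data known, so no p is given over a list alone. Named genes are the 10, relatives of the 10 in the lists, and the 5 genes most like ACTA2 and KRT5. From each pathway, basal and luminal list up to 5 called genes with the largest change and at least 1 CPM are also named. In the other marker lists not every such gene is named. GNAQ, GNA11, ITPR2, LNPEP, MYOCD, HIGD1B, SRF, CALD1, ITGB1, ITGB4, RGS5, DES and TNNT3 were named after their values were seen. List genes were matched by symbol (182) or gene ID (13), and 13 were not matched. Same-numbered pools of the states were not treated as pairs in the main test. Their deviations from the state means correlated at -0.04 to 0.12 over 6 pairs, with 2 above 0.1. As each pool averages several ewes, this cannot show whether such pools share ewes.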

Additional observations from a re-analysis of the deposited data

Results flagged for a closer look

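Single libraries were compared with the rest of their state for the genes and ratios above, and 2 of 38 groups of values held a library set apart by Dixon's criterion, where chance gives about 1 in 20. TAGLN in LM late pregnancy pool 2 was 91.8 CPM, below the other late pregnancy pools (range 91.8 to 134, median 122). The log2 ratio of ACTG2 to ACTA2 in HM lactation pool 2 was -1.39, above the other lactation pools (range -2.04 to -1.39, median -1.94). That pool also had the lowest TP63, at 2.28 CPM. What set these libraries apart was not tested.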

How the results depend on the processing

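The scaling mattered most. On library size only, 9 of the genes were lower and 0 higher, as were 105 and 1 of the pathway and basal genes, where 95.2% of all features were lower. Among the genes named by the rule the log2 changes that turned were ACTA2 -1.88, ACTG2 -1.07, MYH11 -1.45, CNN1 -1.11, TAGLN -1.45, the KRT14 row -1.29, ACTB -0.77, ELF5 -1.09, KRT16 -0.05, KRT19 -1.29, LAMA3 -0.49, LOC101121534 -1.55, ORAI1 -0.63, PDLIM3 -0.92, PPP1R12C -1.57, SMTN -0.27, TGFBR1 -0.56, TGFBR2 -1.55 and TPM1 -0.89. The median of all features was then -1.93, and against it the genes of the list moved by at most 0.01 from their place under TMM. With limma on quantile-normalized RPKM 2 were higher and 3 lower (KRT5, MYLK and ACTA2 at -0.28), and with upper quartile scaling 3 were lower, MYLK joining. Lane 8 alone called MYLK lower in place of TP63. TP63 lost its call, leaving 1 lower gene, with lane 7 alone, with reads on the whole gene, and in 8 of 15 fits leaving out 1 library (range 1 to 2). Without 1 library TP63 over KRT5 differed by 0.37 to 0.64, past the threshold in 3 fits. Intron reads scaled as exon reads gave 2 lower genes. The cause of these moves was not tested.

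With the replicate block (dam group and pool number) 5 of the genes were higher and 1 lower, TP63 at -0.44 losing its call (adjusted p = 0.069), and no other call of the 9 changed. Same-numbered pools correlated weakly, and in 1 of 6 pairs a library correlated best with its own number, which cannot show whether such pools share ewes. A sign-flip test over those pairs gave the 7 ratios its smallest possible p, 0.031. As the states did not overlap for these ratios, any pairing would have given that p, so the test adds no support. DESeq2 and its size factors, uniquely placed reads, the stricter filter, no filter, the dam group or lane as covariate and leaving out the milk protein genes gave 2 lower and 5 higher. The ratios with OXTR were not run. Depth limits TP63 (13 to 57 reads per lactation library) and MYOCD (at most 6).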
